A study of Mus musculus with 25 samples.

Results

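Sorted astrocytes of tau transgenic and non-transgenic mice were compared across all genes. The cells had been sorted on a Gfap signal, and the donor mice were 6 months old. The P301S group (source label hMAPT-P301S astrocyte, n = 5) carried a transgene for human MAPT, the gene of tau, with the P301S mutation. The comparison group (Non-Tg astrocyte, n = 6) came from littermates without the transgene. These 11 libraries were taken by their source label out of 25 in the series. The other 14 are neurons sorted by NeuN (6 P301S, 8 non-Tg) and were used only to set an effect beside the astrocyte one. Both astrocyte groups share the Gfap gate and the age. The sources used here do not give the promoter that drives the transgene, the strain, the brain region or the sex. They also leave unsaid how many animals went into a library, and so each p-value reflects spread among libraries that may be technical. Xist and 4 Y-linked genes had counts in all 11 libraries; Xist ran from 18.2 to 179 CPM in P301S and from 7.28 to 34.2 CPM in non-Tg libraries, and the Y-linked Uty from 15.0 to 54.9 CPM and from 29.1 to 97.95 CPM. In bulk RNA of this kind, a gene's level cannot separate fewer expressing cells from less RNA per cell.

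Astrocytes take up glutamate and potassium from the extracellular space, supply neurons with metabolites and lipoproteins, and line blood vessels with endfeet rich in water channels. In injury, infection and neurodegeneration they become reactive: they enlarge their intermediate filament network of Gfap and vimentin and secrete acute phase proteins, complement and chemokines. Tau is a microtubule-binding protein of neurons, and P301S is a mutation of familial frontotemporal dementia that makes tau prone to aggregate. Type I and type II interferons act through Stat proteins on genes that carry an interferon-stimulated response element or a gamma-activated site, among them guanylate-binding proteins and RNA sensors.

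The astrocyte label held against the defining markers. On a scale shared by all 25 libraries, in counts per 1000000 (CPM), the glutamate transporter gene Slc1a2 had a median of 13060 over the 11 astrocyte libraries and 320.5 over the 14 neuron libraries. The water channel gene Aqp4 had medians of 979 and 8.94, and Gfap had medians of 379 and 3.07. Rbfox3, which encodes NeuN, had a median of 3.35 in astrocytes and 65.4 in neurons. Endothelial markers were low: Cldn5 was at 0 in 10 of the 11 astrocyte libraries, Flt1 reached 14.3 CPM and Cdh5 21.7 CPM, and none of the 8 passed the filter.

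Of 11 library measures 6 had an unadjusted p under 0.05 between genotypes, and none passed after adjustment. In units of 1000000 counts, astrocyte library totals ran from 1.89 to 3.79, and a floor of 3 counts stood for 0.732 to 1.98 CPM. After thinning to 1000000 counts, P301S libraries held 14000 ± 1626 detected genes (SD, n = 5) and non-Tg libraries 16720 ± 1071 (n = 6), with a 2-sided exact permutation p of 0.0130 that became 0.0794 after adjustment over 11 library measures. Mitochondrially encoded genes took 7.72% ± 2.86 of P301S counts and 4.04% ± 1.53 of non-Tg counts (adjusted p = 0.0794, exact permutation p = 0.0303). Some summed markers of other cells were higher in P301S libraries: oligodendrocyte markers ran from 346 to 1128 CPM against 175 to 465 CPM, and microglia and myeloid markers from 101 to 226 CPM against 52.1 to 121 CPM (exact permutation p = 0.0216 and 0.0303, adjusted p = 0.0794 for both). Neuron markers (1978 ± 327 against 1476 ± 304 CPM) and oligodendrocyte precursor markers (425 ± 126 against 279 ± 70.3 CPM) had exact permutation p-values of 0.0390 and 0.0433 (adjusted p = 0.0794 for both). Endothelial (7.56 against 13.6 CPM), mural (125 against 138 CPM) and ependymal sums (14.1 against 25.4 CPM) had lower P301S means, with exact permutation p-values of 0.342, 0.602 and 0.165. P301S libraries 3 and 4 stood highest in the oligodendrocyte and microglia sums, and library 4 had the fewest detected genes, the highest mitochondrial share and a TMM factor of 0.614. The part of these library differences in the gene results was not tested beyond the fits with them as covariates given below.

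Of 12130 genes tested, 63 rose in P301S astrocytes (0.519% of the genes tested) and 3 fell (0.0247%), 66 in all (0.544%), at an adjusted p under 0.05 in edgeR's quasi-likelihood test. A gene past that threshold is named called here, and log2 changes are P301S minus non-Tg. Changes of the 63 higher genes ran from 0.86 (Itsn1, an endocytic scaffold gene) to 4.19 (Helz2, a helicase and coactivator gene), with a median of 2.10. Over all genes tested the median change was 0.13, and 56.7% were above 0. In simulated counts for this comparison (12130 genes, 200 changed), 0% of genes changed by a log2 of 1 were called, 25% of those changed by 2 and 66.5% of those changed by 3. A further 101 genes had an adjusted p from 0.05 to 0.1, and 80 of them were higher in P301S. With the number of detected genes as a covariate no gene was called, while 318 higher and 228 lower genes had an unadjusted p under 0.05. In that fit the change of Serpina3n was 2.92 (adjusted p = 0.0604), that of Ssc5d 3.81 (0.0635), that of Sbno2 3.40 (0.0723), that of C4b 1.79 (0.0635) and that of Gfap 1.62 (0.127). Other called genes moved farther from the threshold in some fit. Over all 24 alternative fits the highest adjusted p was 0.175 for Aspg, 0.820 for Rnf213 and 0.997 for Vim, Fxyd1 and Mt2. With oligodendrocyte and microglia marker levels as covariates 6 higher genes were called, 5 of them among the 63. With a sex marker score as a covariate (Xist minus Y-linked genes) 13 higher genes were called, all among the 63. In that fit 2 lower genes were called, with 0 of the 3 among them. Without P301S libraries 3 and 4 together 36 higher genes were called, 27 of them among the 63.

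**Figure D1:**
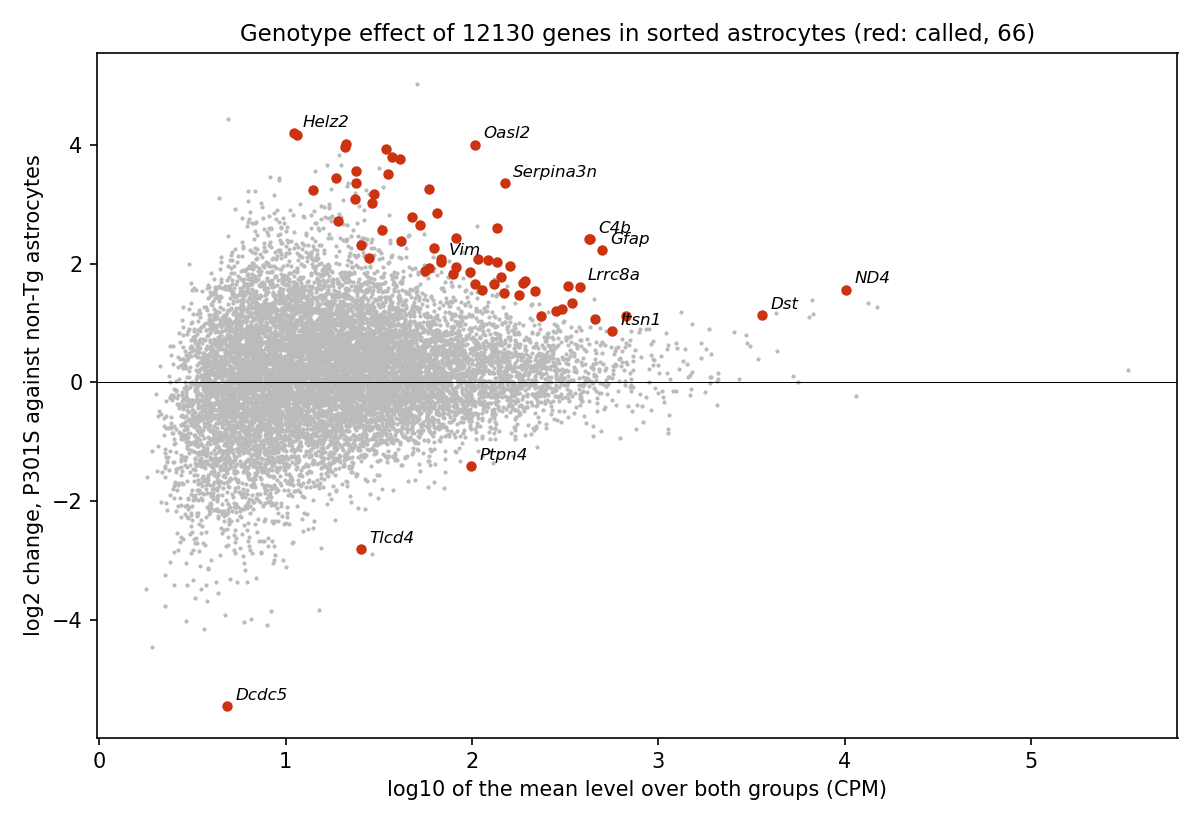
Log2 change of each of the 12130 tested genes (y axis, P301S against non-Tg astrocytes) against its mean level over both groups (x axis, log10 of CPM); red points are the 66 called genes. The called genes lie mostly above 0 and between 1 and 3 on the x axis, with Dcdc5, Tlcd4 and Ptpn4 below 0.

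The groups did not overlap in 52 of the 66 called genes, against 2.14% of all genes tested. All 5 P301S libraries lay above all 6 non-Tg libraries in 49 of the 63 higher genes, and below them in the 3 lower genes. When each of the 11 libraries was left out in turn, 24 of the 66 genes were called in every fit, among them the 20 named genes with the smallest p. Removing P301S library 1 lost 1 of the 66 calls, and removing non-Tg library 3 or 6 lost 39 each. Of the 66, 7 are predicted genes or IDs without a symbol. The sources used here do not state the strand setting of the counting, and 26 of the 62 called genes with a RefSeq position overlap the span of another gene, so reads of such pairs may be shared.

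Complement genes were led by the C4 pair on chromosome 17, C4b from 34728139 to 34743902 and C4a from 34809092 to 34823460 (GRCm38.p6). C4b encodes the complement component that is cleaved in the classical and lectin pathways and tags surfaces for clearance. It stood at 513, 820, 775, 797 and 691 CPM in P301S libraries 1 to 5, and at 78.3 to 234 CPM in non-Tg libraries (median 129). The lowest P301S library was more than the highest non-Tg library, and the change was 2.41 (SE 0.28, adjusted p = 1.03e-04). C4a, a paralog annotated as a transcribed pseudogene, stood at 191, 284, 260, 136 and 296 CPM against 8.88 to 61.1 CPM (median 44.2), a change of 2.60 (SE 0.40, adjusted p = 0.00211). The groups were again apart. C4b and C4a share sequence, so the split of reads between them is uncertain. An unmatched gene ID had the same counts as C4b in 9 of 11 libraries (0.0440% difference in all) and is also among the 66, so C4b appears to be counted there under 2 IDs. Of the 19 complement genes listed 10 were tested, and these 2 were the ones called. The list median was 1.04, or 0.42 without a filter on low counts. For this list and those below, 0.519% of all genes tested were called higher. C3, the central component of the cascade, stood at 49.3, 21.5, 22.9, 12.5 and 8.21 CPM against 0.937 to 19.3 CPM, with overlapping groups (1.23, SE 0.67, adjusted p = 0.429). The lipoprotein and complement inhibitor gene Clu gave 0.84 (adjusted p = 0.155). C1qb, which microglia express, gave 2.76 (adjusted p = 0.168), with 108 CPM in P301S library 3 and 5.27 to 8.05 CPM in the other 4.

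Pan-reactive astrocyte genes held the largest share of called members of any list. Of 13 such genes, which rise in several models of injury and inflammation, 9 were tested, 6 were called higher and all 9 were above 0 (median 2.03). Of all genes tested 0.519% were called higher and 56.7% were above 0. The lists were chosen with earlier results of these data known. The list level, the mean over its tested members of log2 CPM relative to the non-Tg mean, was 2.25, 2.31, 1.94, 2.46 and 2.14 in P301S libraries 1 to 5 and -0.57 to 0.72 in non-Tg libraries. P301S libraries thus lay close together and apart from all non-Tg libraries.

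Serpina3n, a secreted serine protease inhibitor of the acute phase response, stood at 254, 371, 236, 214 and 288 CPM in P301S libraries against 10.99 to 61.8 CPM (median 19.6). Every P301S library was above every non-Tg library, by 3.36 in the fit (SE 0.40, adjusted p = 1.52e-04). Gfap, the astrocyte intermediate filament gene, stood at 724, 703, 941, 1007 and 722 CPM against 77.3 to 326.5 CPM (median 150), a change of 2.22 (SE 0.30, adjusted p = 5.12e-04). The groups did not overlap for Gfap, and its protein is what the cells were sorted by. Vim, which encodes the co-assembling filament protein vimentin, stood at 74.7, 178, 70.3, 142 and 81.7 CPM against 19.9 to 34.1 CPM (median 26.1; 2.03, SE 0.36, adjusted p = 0.00786). P301S libraries 2 and 4 were high for Vim, and the groups were apart. Gfap and Vim were the called members among 9 tested genes of intermediate filaments and cytoskeleton (18 listed, median 0.52), against 0.519% of all genes tested. Flna, an actin crosslinker gene, gave 1.26 (adjusted p = 0.186).

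Osmr encodes the receptor of oncostatin M, a cytokine that signals through Stat3. It stood at 317, 243, 131, 317 and 265 CPM against 33.3 to 129.6 CPM (median 55.5). P301S library 3 lay just above the highest non-Tg library, and the change was 1.96 (SE 0.34, adjusted p = 0.00691). Aspg, an asparaginase gene, stood at 115, 72.2, 146, 48.8 and 153 CPM against 3.44 to 21.9 CPM (median 8.75; 3.26, SE 0.50, adjusted p = 0.00211), with no overlap. Cxcl10, a chemokine gene induced by interferon, stood at 35.1, 25.8, 51.9, 44.8 and 12.9 CPM against 0.282 to 8.79 CPM (median 2.27; 3.44, SE 0.73, adjusted p = 0.0332). Its groups were apart, but the call was kept in 5 of 11 fits that left out 1 library, with the highest adjusted p of 0.104 without non-Tg library 6 and the largest change of 4.14 without non-Tg library 5. The pan-reactive genes that missed the threshold were the lipid receptor gene S1pr3 (1.67, adjusted p = 0.173), the hyaluronan receptor gene Cd44 (1.17, adjusted p = 0.290) and the ceruloplasmin gene Cp (0.79, adjusted p = 0.621).

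**Figure D2:**
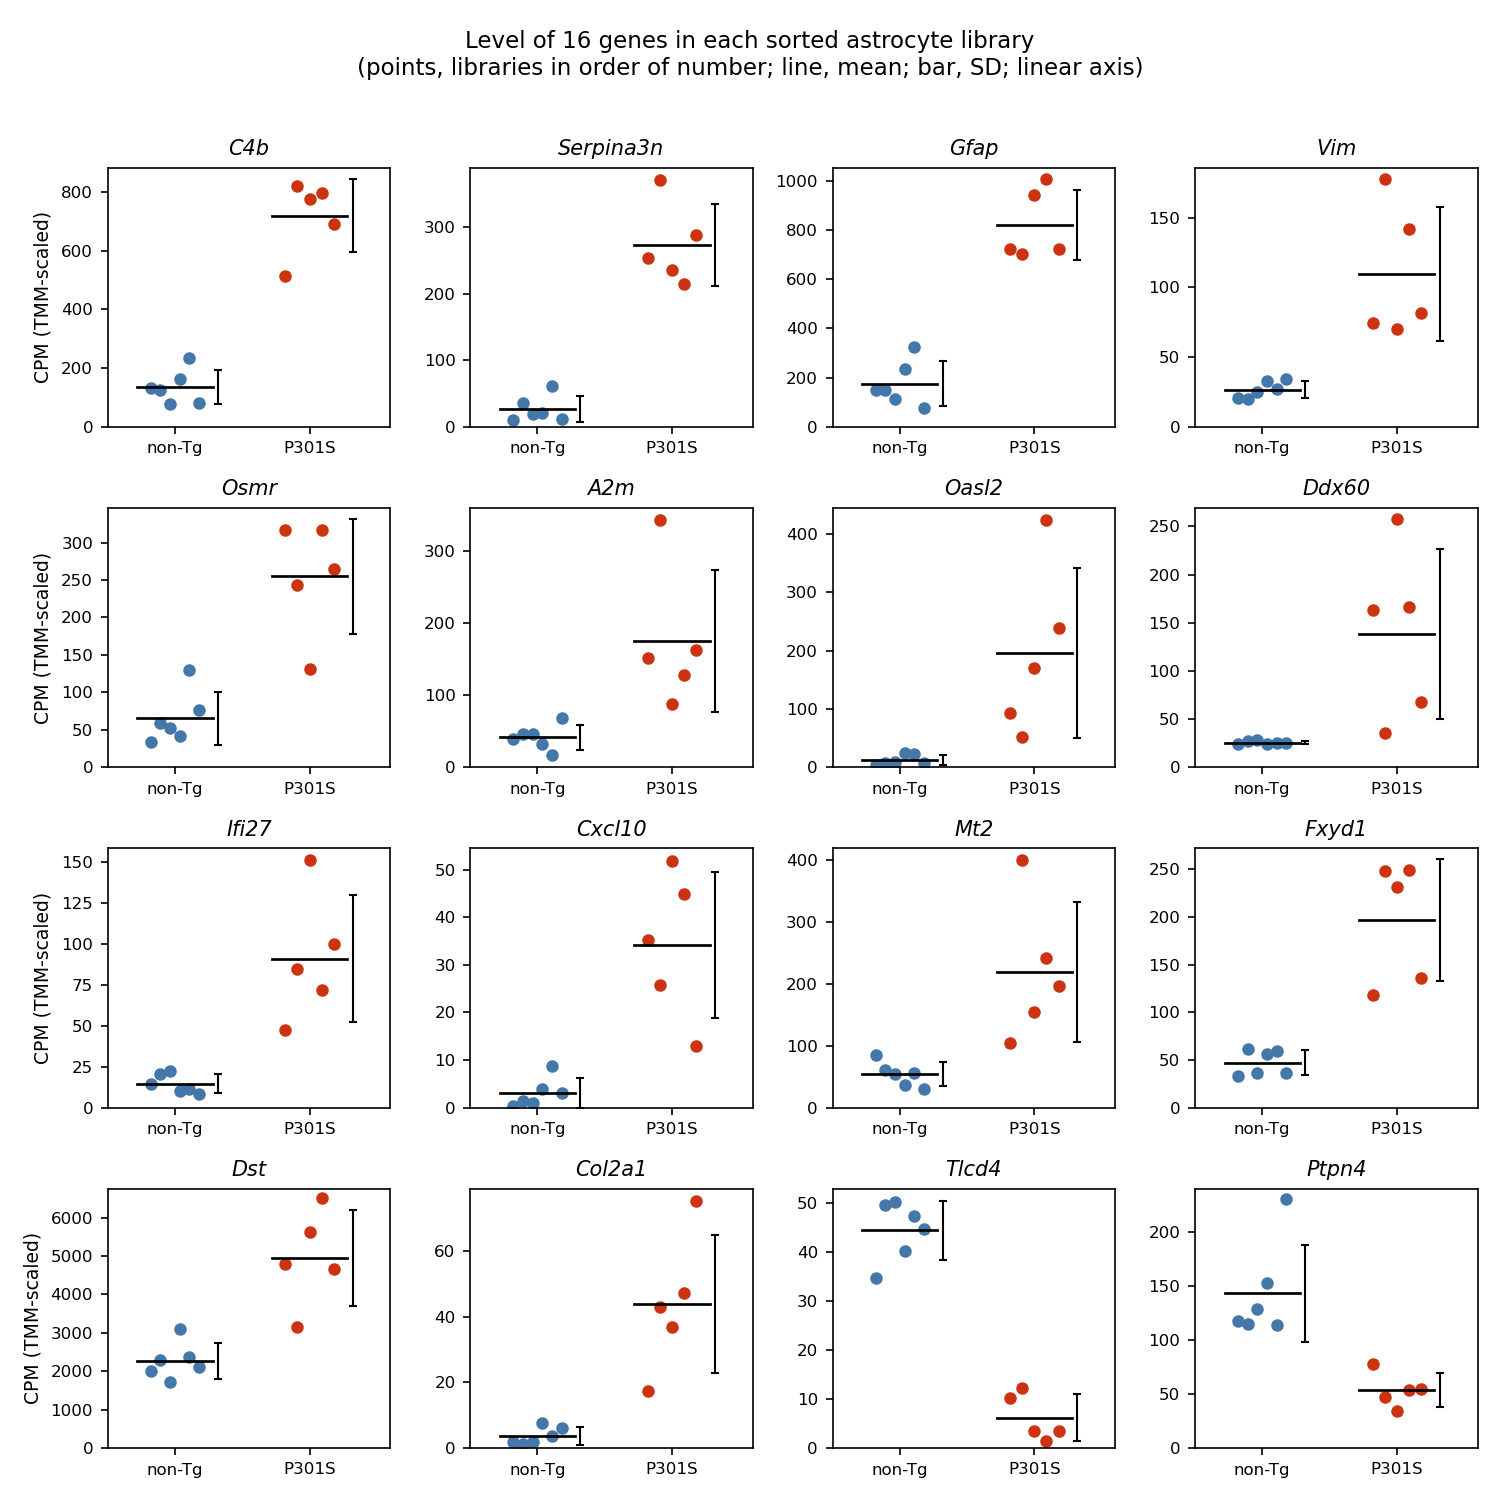
Level of 16 called genes in each library (y axes, CPM scaled by TMM, linear and from 0), with non-Tg libraries in blue and P301S libraries in red; lines are means and bars SD. C4b, Serpina3n and Gfap are high in all 5 P301S libraries, while Oasl2 and Ddx60 spread widely among them.

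The A1 and A2 lists, taken from genes that separate astrocytes of lipopolysaccharide-treated from those of ischaemic brain, were sparsely detected. Of 12 A1 genes 7 were tested, all 7 were above 0 (56.7% of all genes tested) and Ggta1 was called. The median was 2.09, or 1.24 without P301S libraries 3 and 4 and 1.10 without a filter on low counts. Ggta1, a galactosyltransferase gene, stood at 142, 51.3, 203, 48.1 and 105 CPM against 12.97 to 42.8 CPM (median 24.5; 2.08, SE 0.43, adjusted p = 0.0251). Libraries 2 and 4 lay just above the non-Tg range, and the call was lost in 6 of 11 fits, with an adjusted p of up to 0.0943 without non-Tg library 2. The C1 inhibitor gene Serping1 gave 2.10 (adjusted p = 0.192) and the class I histocompatibility gene H2-D1 2.51 (adjusted p = 0.226). Of 12 A2 genes 2 were tested and none was called: Tgm1, a transglutaminase gene, gave 2.68 (adjusted p = 0.233) and Cd109 0.72 (adjusted p = 0.792). The 2 lists cannot be compared from so few members.

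Interferon-induced genes formed the other large group. Of 32 listed, 20 were tested, 7 rose and 18 were above 0 (median 2.04). Of all genes tested 0.519% were called higher and 56.7% were above 0. The list level was 1.88, 1.08, 2.11, 2.08 and 1.40 in P301S libraries 1 to 5 and -0.30 to 0.39 in non-Tg libraries. P301S libraries 2 and 5 were the lower ones, and all 5 lay above the non-Tg range. Most members of the list are known to respond to both type I and type II interferon.

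Oasl2, an oligoadenylate synthetase-like gene, stood at 93.0, 52.4, 170, 424 and 239 CPM against 4.51 to 23.9 CPM (median 8.05), a change of 4.005 (SE 0.53, adjusted p = 5.12e-04). P301S libraries differed among themselves by up to 8.08 times, and the lowest was still above every non-Tg library. Ifi27, which encodes a small membrane protein, stood at 47.1, 84.5, 151, 71.8 and 100 CPM against 8.31 to 22.5 CPM (median 12.8; 2.65, SE 0.42, adjusted p = 0.00315). Its groups were apart, although its span overlaps that of its relative Ifi27l2a. Ddx60, a helicase gene of the cytosolic RNA-sensing pathway, stood at 163, 35.3, 257.5, 167 and 67.9 CPM against 23.7 to 28.1 CPM (median 25.3; 2.43, SE 0.41, adjusted p = 0.00631). Non-Tg libraries were nearly level for Ddx60, and P301S library 2 was close to them.

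Stat2, a transcription factor of the type I interferon response, stood at 187, 132.5, 138.5, 179 and 155 CPM against 30.5 to 102 CPM (median 39.9; 1.66, SE 0.34, adjusted p = 0.0237). It had the smallest relative spread among P301S libraries of the 63 higher genes, and the groups were apart. Irgm1, an immunity-related GTPase gene, stood at 21.96, 11.1, 44.2, 58.0 and 31.6 CPM against 2.21 to 9.29 CPM (median 4.22; 2.72, SE 0.60, adjusted p = 0.0409), again without overlap. The guanylate-binding protein genes Gbp3 and Gbp7 lie next to each other on chromosome 3, Gbp7 from 142530336 to 142550151 and Gbp3 from 142560016 to 142573213. Gbp3 stood at 44.4, 12.2, 92.3, 73.8 and 57.4 CPM against 1.94 to 18.4 CPM (median 8.46; 2.57, SE 0.57, adjusted p = 0.0413). Gbp7 stood at 94.0, 39.6, 165, 187 and 128 CPM against 17.96 to 71.3 CPM (median 30.7; 1.83, SE 0.42, adjusted p = 0.0487). P301S library 2 fell inside the non-Tg range for both. Reads can be shared between members of the Gbp family. Calls for these 4 genes were lost without some libraries, with adjusted p-values of up to 0.0942 for Stat2 (without non-Tg library 6), 0.122 for Irgm1 and 0.127 for Gbp3 (both without non-Tg library 1) and 0.129 for Gbp7 (without non-Tg library 2).

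Promoter windows are shown for the 5 called interferon-list genes that held a motif match. They were chosen by their calls and matches, and a part of the motif in their change was not tested. Of the other called members, Oasl2 had an entry without a match, and Ifi27 had no entry. The window is the 250 bases before the start of the RefSeq transcript in the table, on GRCm38.p6, written 5′ to 3′ on the gene's strand. Searched on both strands were GAAANNGAA, the core of the interferon-stimulated response element, TTCNNNGAA, a Stat dimer site, and TCACNCCAC, a sterol response element. Matches are in capitals: in Ddx60, Stat2, Irgm1 and Gbp3 they are GAAANNGAA or its reverse complement, and in Gbp7 the first pair are TTCNNNGAA and the last is GAAANNGAA. The windows are Ddx60 at chr8:61927837-61928086 (plus strand), Stat2 at chr10:128270248-128270497 (plus), Irgm1 at chr11:48871421-48871670 (minus), Gbp3 at chr3:142559794-142560043 (plus) and Gbp7 at chr3:142530086-142530335 (plus).
Ddx60: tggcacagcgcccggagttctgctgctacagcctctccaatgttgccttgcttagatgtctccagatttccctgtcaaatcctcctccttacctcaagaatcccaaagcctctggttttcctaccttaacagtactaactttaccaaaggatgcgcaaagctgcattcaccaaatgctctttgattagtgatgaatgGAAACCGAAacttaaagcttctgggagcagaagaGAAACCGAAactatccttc
Stat2: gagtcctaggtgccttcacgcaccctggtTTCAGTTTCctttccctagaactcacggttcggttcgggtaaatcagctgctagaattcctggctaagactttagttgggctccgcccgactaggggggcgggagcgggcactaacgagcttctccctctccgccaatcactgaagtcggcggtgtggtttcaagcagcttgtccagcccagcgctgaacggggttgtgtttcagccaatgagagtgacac
Irgm1: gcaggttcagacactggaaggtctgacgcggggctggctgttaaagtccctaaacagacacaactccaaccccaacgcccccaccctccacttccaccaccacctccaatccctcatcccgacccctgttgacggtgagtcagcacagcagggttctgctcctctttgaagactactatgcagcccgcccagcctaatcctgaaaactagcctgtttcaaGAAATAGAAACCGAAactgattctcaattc
Gbp3: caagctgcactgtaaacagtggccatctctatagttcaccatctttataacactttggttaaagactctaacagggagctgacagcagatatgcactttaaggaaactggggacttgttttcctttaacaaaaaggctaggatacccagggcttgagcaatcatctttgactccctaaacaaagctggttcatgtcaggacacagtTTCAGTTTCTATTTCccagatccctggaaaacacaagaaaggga
Gbp7: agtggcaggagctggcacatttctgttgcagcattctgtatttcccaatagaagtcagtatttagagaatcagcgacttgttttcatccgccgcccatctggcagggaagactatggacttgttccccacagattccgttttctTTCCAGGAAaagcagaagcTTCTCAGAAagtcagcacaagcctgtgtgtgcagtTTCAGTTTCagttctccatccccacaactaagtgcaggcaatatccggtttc

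Ddx60 held matches that begin 53 and 19 bases before the start, and those of Irgm1 began 30 and 24 bases before it, sharing 3 bases. Gbp3 likewise held an overlapping pair, at 44 and 38 bases, on the other strand. The single GAAANNGAA match of Gbp7 lay at 52 bases, and that of Stat2 far upstream, at 221 bases. Gbp7 also held TTCNNNGAA at 106 and 87 bases. Of the 63 called higher genes 41 had a promoter entry, and 9 of these held GAAANNGAA (21.95%), against 7.36% of the 8870 tested genes with an entry. Those 9 were Sbno2, Ddx60, Stat2, Cxcl10, Irgm1, Cd274, Gbp3, Kif1a and Gbp7. Sbno2 had more than 1 window and was counted for a match in any of them. The matches of Sbno2 (chr10:80075440-80075689), Cd274 (chr19:29367188-29367437) and Kif1a (chr1:93082481-93082730) lay in windows inside the span of the gene. Among interferon-list genes tested, 9 of 14 with an entry held it (64.3%). That list holds genes known to respond to interferon, so this share is no independent evidence. TTCNNNGAA was found in 2 of the 41 (Sbno2 and Gbp7, 4.88%), against 7.07% of tested genes, and TCACNCCAC in Gfap alone (2.44%), against 1.38%. A match describes these letters in this window and is not a binding site.

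Ifit1, an interferon-list gene at the edge of the threshold, encodes an antiviral RNA-binding protein. It stood at 14.2, 33.4, 13.7, 50.7 and 30.9 CPM against 1.11 to 6.03 CPM (2.78, SE 0.64, adjusted p = 0.0507), with no overlap. Not on the list, the called genes Helz2 (4.19), Gbp6 (3.25), Mx2 (3.01), Cd274 (2.79) and Rnf213 (1.62) are also known as interferon-responsive. Mx2, a dynamin-like GTPase gene, is annotated as a transcribed pseudogene. Cd274 encodes the immune checkpoint ligand PD-L1 and stood at 31.7, 24.2, 22.3, 284.6 and 51.1 CPM against 4.52 to 17.1 CPM. Without P301S library 4 its change was 1.45 (adjusted p = 0.169), so that library sets much of its size. Helz2 stood at 59.8 CPM in library 3 and 5.97 to 22.4 CPM in the other 4, and its change without library 3 was 3.31 (call lost). Leaving out 1 library lost the call in 6 of 11 fits for Helz2, 6 for Gbp6, 7 for Mx2 and 8 for Cd274.

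Antigen presentation genes, which load and display peptides on class I molecules, had no called member. Of 13 listed 8 were tested and 7 were above 0 (median 1.76). The median was 0.70 with oligodendrocyte and microglia covariates and 0.75 with genes detected as a covariate. Without P301S libraries 3 and 4 it was 1.005. B2m, the invariant class I chain gene, stood at 36.6, 87.7, 105, 289 and 65.6 CPM against 27.6 to 49.2 CPM (1.78, SE 0.43, adjusted p = 0.0665). Nlrc5, the class I transactivator gene, gave 2.43 (adjusted p = 0.0818), and the peptide transporter gene Tap2 gave 2.22 (adjusted p = 0.111). B2m in P301S library 1 lay inside the non-Tg range, and library 4 was the highest.

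Among signalling genes upstream of these responses, 24 cytokine receptor and Jak-Stat genes were listed and 21 tested. Osmr and Stat2 were called, as given above, and the median was 0.37. Stat3, which transmits oncostatin M and interleukin-6 signals, stood at 60.0, 89.9, 122, 26.4 and 93.7 CPM against 25.2 to 60.7 CPM, with overlapping groups (0.95, SE 0.40, adjusted p = 0.305). Il1r1, the interleukin-1 receptor gene, gave 1.94 (adjusted p = 0.165), and the shared receptor chain gene Il6st 0.37 (adjusted p = 0.646). Of 19 NF-kB and chemokine genes 11 were tested, Cxcl10 was called and the median was -0.05. Nfkb2 gave 1.83 (adjusted p = 0.239) and Nfkbia, an NF-kB inhibitor gene, -0.73 (adjusted p = 0.728). TGF-beta and BMP genes (17 of 23 tested) had no call and a median of 0.48, with the receptor-activated Smad1 at 2.20 (adjusted p = 0.0806).

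Among secreted protease inhibitors and metalloproteases, 15 of 20 were tested and Serpina3n and A2m were called (median 0.23). A2m encodes the broad inhibitor alpha-2-macroglobulin and stood at 151, 343, 87.5, 128 and 162.5 CPM against 16.8 to 67.9 CPM (median 42.7; 2.08, SE 0.38, adjusted p = 0.0101). P301S library 2 was the highest, and the groups did not overlap. The metalloproteinase inhibitor genes Timp2, Timp3 and Timp4 gave 0.30, 0.02 and 0.61, none past the threshold.

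Metallothioneins bind zinc and copper and rise in metal load, glucocorticoid exposure and oxidative stress. Mt2 stood at 104, 400.3, 154, 242 and 196 CPM against 30.1 to 84.6 CPM (median 55.7; 2.02, SE 0.35, adjusted p = 0.00671), with the groups apart. Its neighbour Mt1 stood at 81.5, 148.5, 263, 219 and 54.0 CPM against 22.3 to 67.4 CPM (median 44.9; 1.86, SE 0.41, adjusted p = 0.0393). P301S library 5 fell inside the non-Tg range for Mt1, and its call was lost in 8 of 11 fits (adjusted p of up to 0.111, without non-Tg library 6). Both lie on chromosome 8, Mt2 from 94172618 to 94173567 and Mt1 from 94178883 to 94180327, and their sequences are alike. The wider list of metallothionein and oxidative stress genes had 14 of 19 members tested, these 2 called and a median of 0.57. Mt3, the brain metallothionein gene, gave 2.22 (adjusted p = 0.251), and Prdx6, a peroxiredoxin gene of astrocytes, gave 0.82 (adjusted p = 0.130).

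Of 25 transport and metabolism genes of astrocytes all 25 were tested and 1 rose, against 0.519% of all genes tested, with a median of -0.09. That gene, Fxyd1, encodes phospholemman, a regulator of the sodium pump. It stood at 118, 248, 231, 249.1 and 136 CPM against 33.0 to 61.4 CPM (median 46.5; 2.06, SE 0.31, adjusted p = 0.00211), with a wide gap between the groups. Aqp4 stood at 703, 852, 395, 822 and 736 CPM against 602 to 1112 CPM (-0.40, SE 0.22, adjusted p = 0.442), and Slc1a2 gave -0.23 (SE 0.21, adjusted p = 0.664). Both overlapped between groups, and Aqp4 was lowest in P301S library 3. The connexin gene Gja1 lay below the non-Tg range of 408 to 897.5 CPM in all P301S libraries but library 4 (-0.91, SE 0.34, adjusted p = 0.239), and the cystine transporter gene Slc7a11 gave -0.87 (adjusted p = 0.109).

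All 16 astrocyte markers were tested and Gfap was called (median 0.26). The summed markers ran from 13710 to 26870 CPM in P301S and from 15120 to 23900 CPM in non-Tg libraries, so the groups overlapped. Aldh1l1, a folate enzyme gene used as a pan-astrocyte marker, gave 1.59 (adjusted p = 0.0806). None of the 24 astrocyte receptor genes was called (median 0.15), with the adenosine receptor gene Adora1 at 1.83 (adjusted p = 0.0647). Of 25 astrocyte transcription factor genes 23 were tested without a call (median 0.34); the inhibitor gene Id4 gave -1.37 (adjusted p = 0.111), Nfix 0.95 (adjusted p = 0.112) and the hedgehog effector gene Gli2 1.15 (adjusted p = 0.121). Synapse-organising and phagocytic genes (23 of 25 tested) had no call and a median of -0.13, with Abca1 at 0.85 (adjusted p = 0.0836), Lrp1 at 0.91 (adjusted p = 0.0964) and Thbs4 at 1.25 (adjusted p = 0.190).

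Called genes outside the lists numbered 36 with a symbol, and several had the largest changes of the comparison. Ssc5d encodes a soluble scavenger receptor cysteine-rich protein. It stood at 75.7, 73.0, 115, 54.7 and 27.8 CPM against 2.26 to 10.3 CPM (median 4.75; 3.80, SE 0.52, adjusted p = 5.84e-04). Sbno2 encodes a transcriptional coregulator known downstream of interleukin-10 and Stat3. It stood at 107, 48.3, 20.7, 80.4 and 69.1 CPM against 2.29 to 11.1 CPM (median 4.18; 3.51, SE 0.55, adjusted p = 0.00270). In both genes every P301S library lay above the non-Tg range.

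Rnf213 encodes a very large ubiquitin ligase with an ATPase domain. It stood at 474, 411, 655, 578 and 361 CPM against 123 to 283 CPM (median 136; 1.62, SE 0.26, adjusted p = 0.00374). Neat1, the long non-coding RNA that builds paraspeckles in the nucleus, stood at 292, 159, 282, 374 and 362 CPM against 56.4 to 141 CPM (median 87.7; 1.70, SE 0.29, adjusted p = 0.00583). Both separated the groups. Malat1, its nuclear neighbour, took 30.4% ± 5.52 of P301S counts and 33.0% ± 1.86 of non-Tg counts (exact permutation p = 0.329, adjusted p = 0.418).

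Structural and adhesion genes among the calls included Dst, the abundant gene of the cytoskeletal linker dystonin. It stood at 4787, 3154, 5613, 6515 and 4651 CPM against 1706 to 3110 CPM (median 2190; 1.13, SE 0.20, adjusted p = 0.00734), and P301S library 2 lay just above the highest non-Tg library. Col2a1, a fibrillar collagen gene typical of cartilage, stood at 17.3, 42.9, 36.9, 47.4 and 75.4 CPM against 1.11 to 7.70 CPM (median 2.82; 3.57, SE 0.62, adjusted p = 0.00671). Tns2, which encodes a tensin of focal adhesions, stood at 77.1, 77.9, 129.5, 167 and 69.8 CPM against 13.3 to 35.9 CPM (median 16.2; 2.27, SE 0.40, adjusted p = 0.00744). All 3 were called whichever library was left out. So was Nfasc, the gene of the adhesion molecule neurofascin (1.54, SE 0.28, adjusted p = 0.00786). Over all 24 alternative fits the change of Dst ran from 0.72 to 1.265, with an adjusted p of up to 0.997. That of Col2a1 ran from 2.53 to 3.90 and that of Tns2 from 1.42 to 2.47, with the same highest adjusted p. Extracellular matrix and integrin genes as a list (20 of 28 tested, Col2a1 not among them) had no call and a median of 0.15, led by Col16a1 at 1.85 (adjusted p = 0.160) and Hapln1 at -1.52 (adjusted p = 0.168).

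Coq8b, an atypical kinase gene of coenzyme Q synthesis, stood at 33.9, 52.1, 107, 44.1 and 32.5 CPM against 2.01 to 12.4 CPM (median 5.48; 3.18, SE 0.55, adjusted p = 0.00671), without overlap. Smaller but called changes were found in Pbxip1 (1.23), which encodes a partner of PBX homeoproteins, and in Lrrc8a (1.61), the essential subunit gene of volume-regulated anion channels. Ras and MAP kinase regulators were among them too: Ksr1 (1.88), a scaffold, and Plce1 (1.78), a Ras-regulated phospholipase. Tet3 (1.56) encodes a chromatin enzyme that oxidises methylcytosine. Motor, membrane traffic and cytoskeleton genes included Kif1a (1.12), Clip3 (1.68), Septin8 (1.11), Itsn1 (0.86) and the actin-associated synaptopodin gene Synpo (4.16). Each gene of this paragraph after Coq8b lost its call without at least 1 library, with adjusted p-values of up to 0.133 (Kif1a without non-Tg library 6).

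**Figure D3:**
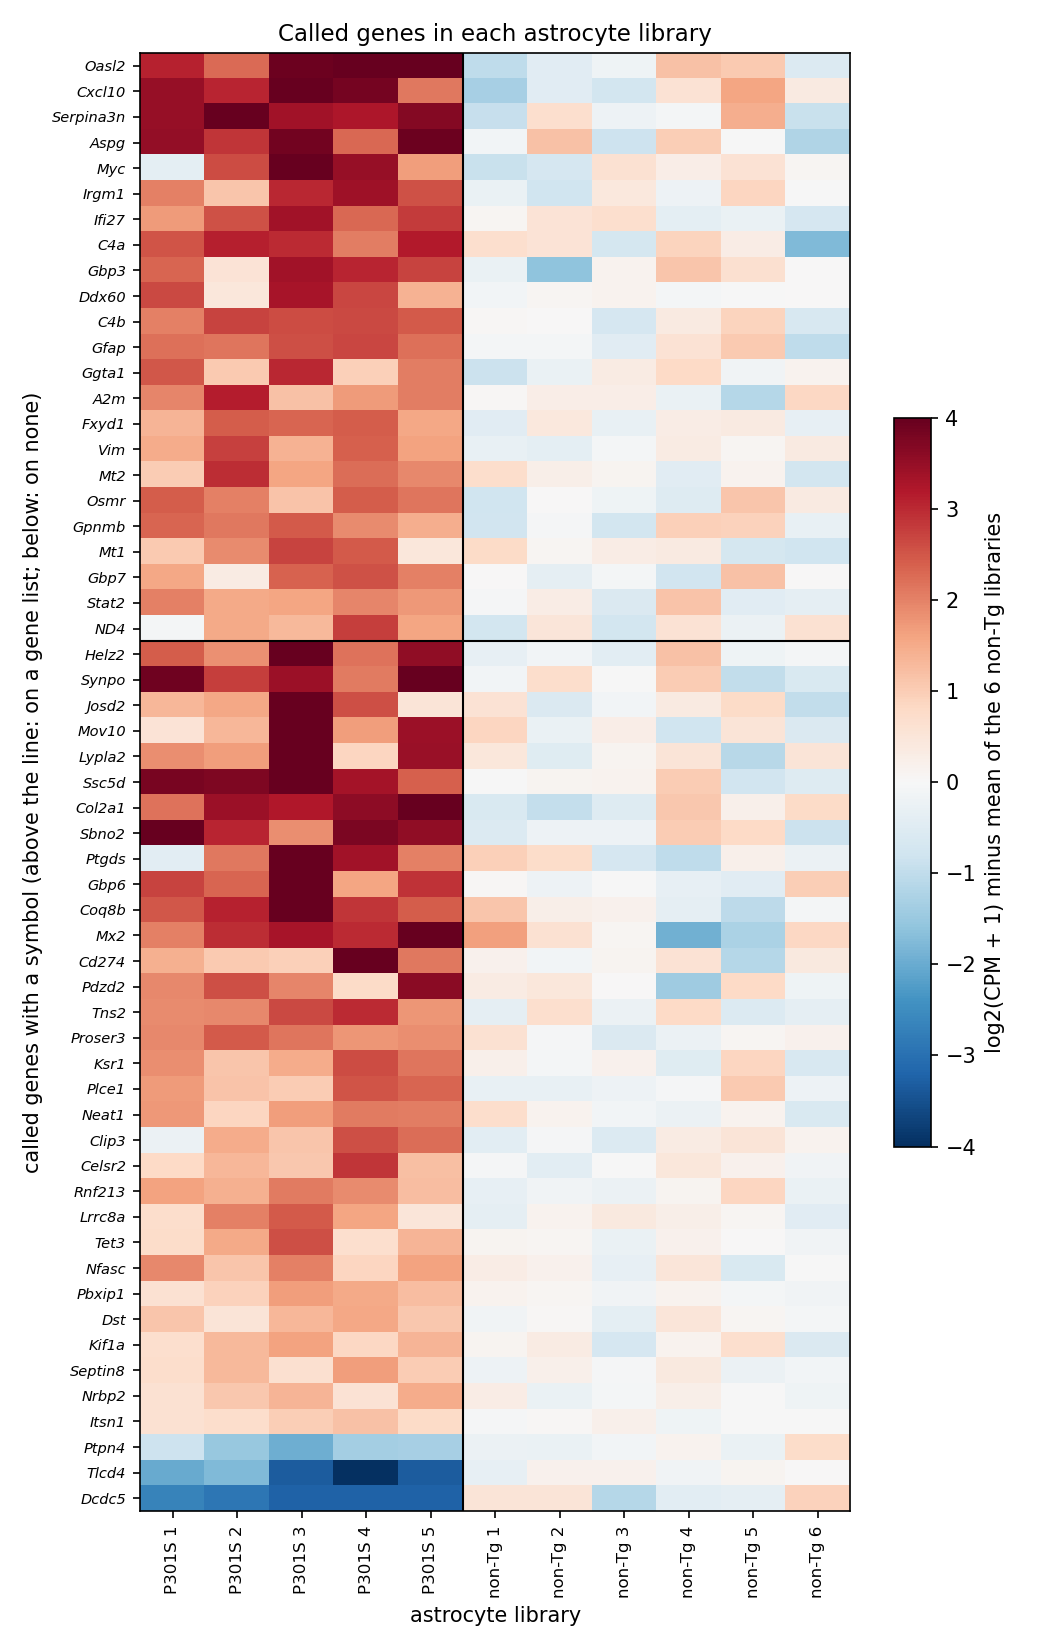
Called genes with a symbol, without those not reported here, in each astrocyte library (columns), coloured by log2(CPM + 1) minus the mean of the 6 non-Tg libraries; genes above the horizontal line are on a gene list and those below are on none. Red fills the 5 P301S columns for nearly all genes, with the deepest colour often in P301S 3, and the 3 lower genes are blue.

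The size of the response differed among P301S libraries. Library 3 was the highest of the 5 in 25 of the 63 higher genes, against 22.3% of all genes tested, and library 4 in 19 (22.9% of all genes); library 1 was the highest in 3 (14.1%). The ratio of the highest to the lowest P301S library had a median of 3.38 over the 63. It was 1.41 for Stat2, 1.43 for Gfap, 1.599 for C4b and 1.73 for Serpina3n, which were among the most even. It was 46.5 for the deubiquitinase gene Josd2, 39.1 for the RNA helicase gene Mov10 and 29.8 for the acyl-protein thioesterase gene Lypla2, all with library 3 far above the rest. Without library 3 the changes of these 3 genes were 1.87, 2.41 and 2.42 instead of 4.01, 3.96 and 3.93, and none was called. Ptgds, the prostaglandin D synthase gene, had the largest ratio of the 63, at 54.8, and Myc, a growth regulator, had one of 31.1. Their changes were also smaller without library 3: 3.36 became 2.31 and 3.09 became 2.50, and both calls were lost. For Celsr2, an atypical cadherin gene, 1.66 became 1.11 without library 4, and the call was lost. These calls were lost without other libraries too. Of 11 fits that left out 1 library, 9 lost the call of Ptgds, 8 that of Myc and 8 that of Mov10. The call was lost in 7 for Josd2, 6 for Celsr2 and 3 for Lypla2. Library 3 also had the highest summed oligodendrocyte, precursor and microglia markers; the part of those cells in its levels was not tested.

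The 3 genes that fell had no list in common. Dcdc5, a doublecortin-domain gene on chromosome 2 (106080864 to 106409743), stood at 0.488, 0.272, 0, 0 and 0 CPM in P301S libraries against 3.28 to 16.9 CPM (median 9.34). All P301S libraries were under the floor of 3 counts and all non-Tg libraries above it, and the test gave an adjusted p of 0.0174 (0.0505 without non-Tg library 6). Tlcd4, a gene of the TLC domain family on chromosome 3, stood at 10.3, 12.2, 3.501, 1.32 and 3.47 CPM against 34.7 to 50.1 CPM (median 45.9). It fell by 2.81 on the log2 scale (SE 0.57, adjusted p = 0.0218), and was not called in 4 of 11 fits (adjusted p of up to 0.0754, without non-Tg library 3). Ptpn4, a tyrosine phosphatase gene on chromosome 1, stood at 77.6, 47.5, 34.7, 53.4 and 54.6 CPM against 114 to 231 CPM (median 124). It fell by 1.42 (SE 0.32, adjusted p = 0.0413), with the groups apart, but was called in 2 of 11 fits (adjusted p of up to 0.161, without non-Tg library 6).

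Cholesterol synthesis genes had the lowest median among lists with at least 5 tested members. Of 25 listed 21 were tested, none was called and 14 were below 0, with a median of -0.65 against 0.13 for all genes. The list level was -0.59, -1.36, -1.13, -0.55 and -1.13 in P301S libraries and -0.45 to 0.24 in non-Tg libraries, so all 5 P301S libraries lay below the non-Tg range. Insig1, which retains the sterol sensor in the endoplasmic reticulum, stood at 14.2, 1.63, 25.1, 1.98 and 6.31 CPM against 26.9 to 57.2 CPM (-2.13, SE 0.62, adjusted p = 0.124), with no overlap. Cyp51, a sterol demethylase gene, stood at 15.6, 16.02, 66.2, 21.7 and 12.3 CPM against 43.2 to 165 CPM (-1.76, SE 0.47, adjusted p = 0.0964). P301S library 3 was the exception for Cyp51. Msmo1 gave -1.50 (adjusted p = 0.236), and Srebf1, whose product activates fatty acid synthesis, went the other way at 1.14 (adjusted p = 0.240). Lipoprotein and lipid handling genes (19 of 24 tested) had no call and a median of 0.47. Apoe, the main lipoprotein gene of astrocytes, stood at 316.5, 443.5, 536, 458 and 429 CPM against 171 to 449 CPM (0.57, SE 0.25, adjusted p = 0.328), with overlapping groups.

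Mitochondrially encoded genes were above 0 in all 7 tested members (13 listed, median 1.26), and ND4, a complex I subunit gene, was called. With genes detected as a covariate their median was -0.06, and with oligodendrocyte and microglia covariates 0.51. ND4 stood at 4472, 13500, 11650, 31900 and 14300 CPM against 2837 to 7299 CPM (1.56, SE 0.35, adjusted p = 0.0409). P301S library 1 fell inside the non-Tg range and library 4 was the highest, as in the mitochondrial share of counts. The call was kept in 2 of 11 fits, and without library 4 the change was 1.11. CYTB gave 1.33 (adjusted p = 0.0682) and ND5 1.26 (adjusted p = 0.0806).

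Lysosome and autophagy genes (27 of 29 tested, median 0.44) had 1 call. Gpnmb, a transmembrane glycoprotein gene of lysosomal stress, stood at 154, 133, 168, 113 and 84.3 CPM against 17.2 to 58.2 CPM (median 26.4; 1.95, SE 0.39, adjusted p = 0.0200). The groups were apart, and the call was lost in 4 of 11 fits (adjusted p of up to 0.0774, without non-Tg library 6). Gpnmb is also a gene of myeloid cells in disease, and the microglia and myeloid markers were higher in P301S libraries, as given above; their part in its level was not tested. The protease gene Ctsb gave 1.10 (adjusted p = 0.0956). Proliferation genes (6 of 15 tested, median 0.91, and -0.13 with oligodendrocyte and microglia covariates) had Myc as their call, with the cyclin gene Ccnd1 at 2.14 (adjusted p = 0.189).

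Several stress and metabolic lists held no called gene. Heat shock and unfolded protein genes (20 of 27 tested) had a median of 0.21, with the heat shock factor gene Hsf1 at 1.68 (adjusted p = 0.0836). Glycolysis and glycogen genes (21 of 26) had a median of 0.13, led by Eno1 at 1.71 (adjusted p = 0.248). Immediate early genes (8 of 17) had a median of -0.02, with Jund at 1.33 (adjusted p = 0.489). Circadian clock genes (18 of 19) had a median of -0.11, with Clock at -0.75 (adjusted p = 0.339). The medians of these 4 lists lay near that of all genes.

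Tau and amyloid related genes (20 of 23 tested) had no call and a median of 0.34. Mapt, the mouse tau gene, stood at 68.8, 35.6, 74.2, 103 and 107 CPM against 30.0 to 52.0 CPM (median 35.9; 1.005, SE 0.37, adjusted p = 0.224). P301S library 2 lay inside the non-Tg range. The counts are of the mouse gene model, and no source used here says how reads of the human transgene were aligned, so Mapt is no measure of the transgene. Prnp, the prion protein gene, gave -0.41 (SE 0.29, adjusted p = 0.544). The amyloid precursor gene App gave -0.02 (adjusted p = 0.992) and its relative Aplp1 0.63 (adjusted p = 0.326).

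Markers of other cell types held no called gene. Oligodendrocyte markers (7 of 10 tested) had a median of 0.42, and Mobp, a myelin protein gene, stood at 78.1, 95.3, 360.3, 131 and 96.3 CPM against 18.3 to 60.0 CPM (1.78, SE 0.42, adjusted p = 0.0515). Precursor markers (6 of 7) had a median of 0.93 (0.34 without P301S libraries 3 and 4, and -0.06 with the sex covariate), led by Olig2 at 1.46 (adjusted p = 0.105), and microglia and myeloid markers (7 of 12) a median of 0.40. Neuron markers (14 of 16) had a median of 0.23, with the enolase gene Eno2 at 2.48 (adjusted p = 0.0682). Mural and fibroblast markers (5 of 9) had a median of -0.03, with Acta2 at -3.37 (adjusted p = 0.143). None of 8 endothelial and 1 of 6 ependymal markers were tested.

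**Figure D4:**
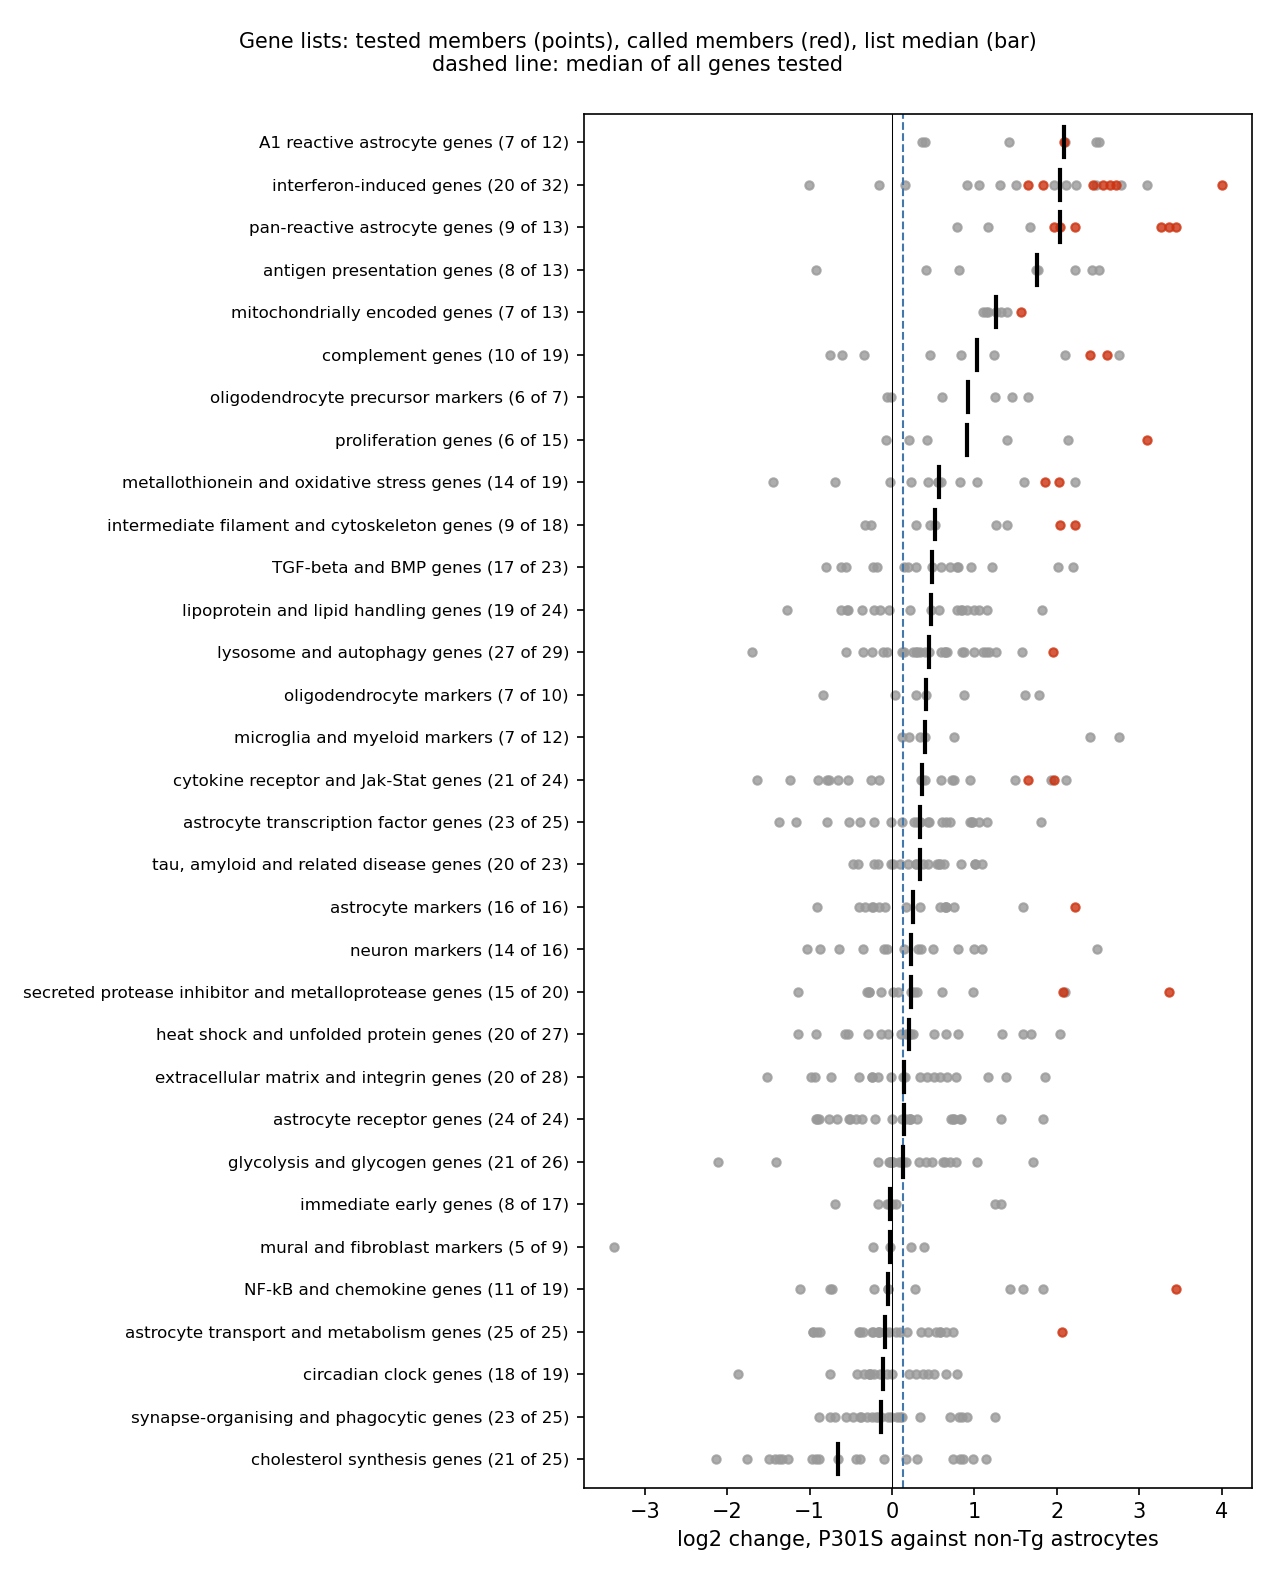
Log2 change (x axis, P301S against non-Tg astrocytes) of the tested members of each gene list with at least 5 tested members; red points are called members, black bars list medians, and the dashed line is the median of all genes, 0.13. The A1, interferon-induced and pan-reactive lists lie farthest to the right and cholesterol synthesis genes farthest to the left.

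Compared per length, in the authors' size-factor-adjusted RPKM, the most abundant called genes with a symbol in P301S astrocytes were ND4 at 2068 and Mt2 at 73.9. Mt1 followed at 37.9, Gfap at 32.9, the pseudokinase gene Nrbp2 at 32.03 and Fxyd1 at 28.2. Serpina3n at 24.4 and C4b at 22.96 were close to each other. In non-Tg astrocytes Serpina3n had been at 2.37 and C4b at 4.28. At the other end, Synpo was at 0.483 and Helz2 at 0.384, above only the lower genes Tlcd4 at 0.168 and Dcdc5 at 0.00306. The large changes of Synpo and Helz2 were thus among genes of low level.

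The same genotype comparison was made in neurons. Of 10951 genes tested there, 1 was called (0.00913%), and 7.73% had an unadjusted p under 0.05. Of the 63 genes higher in astrocytes 33 were tested in neurons; 24 were above 0, with a median of 0.14 (all genes: -0.02, 46.2% above 0), and 3 had an unadjusted p under 0.05. The 3 were Ddx60 (2.61), the 1 called gene, Gfap (1.72) and Rnf213 (1.10). Gfap was low in neuron libraries, at 0.634 to 10.2 CPM in non-Tg and 2.61 to 14.8 CPM in P301S, with overlapping groups. The source of its RNA there was not tested. The difference of the genotype effect, astrocytes minus neurons, was called in 56 of 14197 genes tested (0.394%) and in 14 of the 66 genes called in astrocytes. These 66 were chosen by their astrocyte effect, so the latter count is no independent evidence. Serpina3n rose by 3.36 in astrocytes and gave -0.06 in neurons (difference 3.43, SE 0.49, adjusted p = 7.39e-04). Ssc5d (difference 3.51, SE 0.61, adjusted p = 0.00711), Sbno2 (3.41, SE 0.64, adjusted p = 0.0159) and Ifi27 (2.11, SE 0.49, adjusted p = 0.0469) differed too. Dst differed by 1.05 (SE 0.25, adjusted p = 0.0488). For Ddx60 the difference was -0.18 (SE 0.50, adjusted p = 0.913) and for Rnf213 0.53 (adjusted p = 0.568). C4b was not tested in the neuron fit, and its difference was 1.39 (SE 0.74, adjusted p = 0.383). Neuron and astrocyte libraries may come from the same animals, which the labels do not tell, and were treated as independent.

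**Figure D5:**
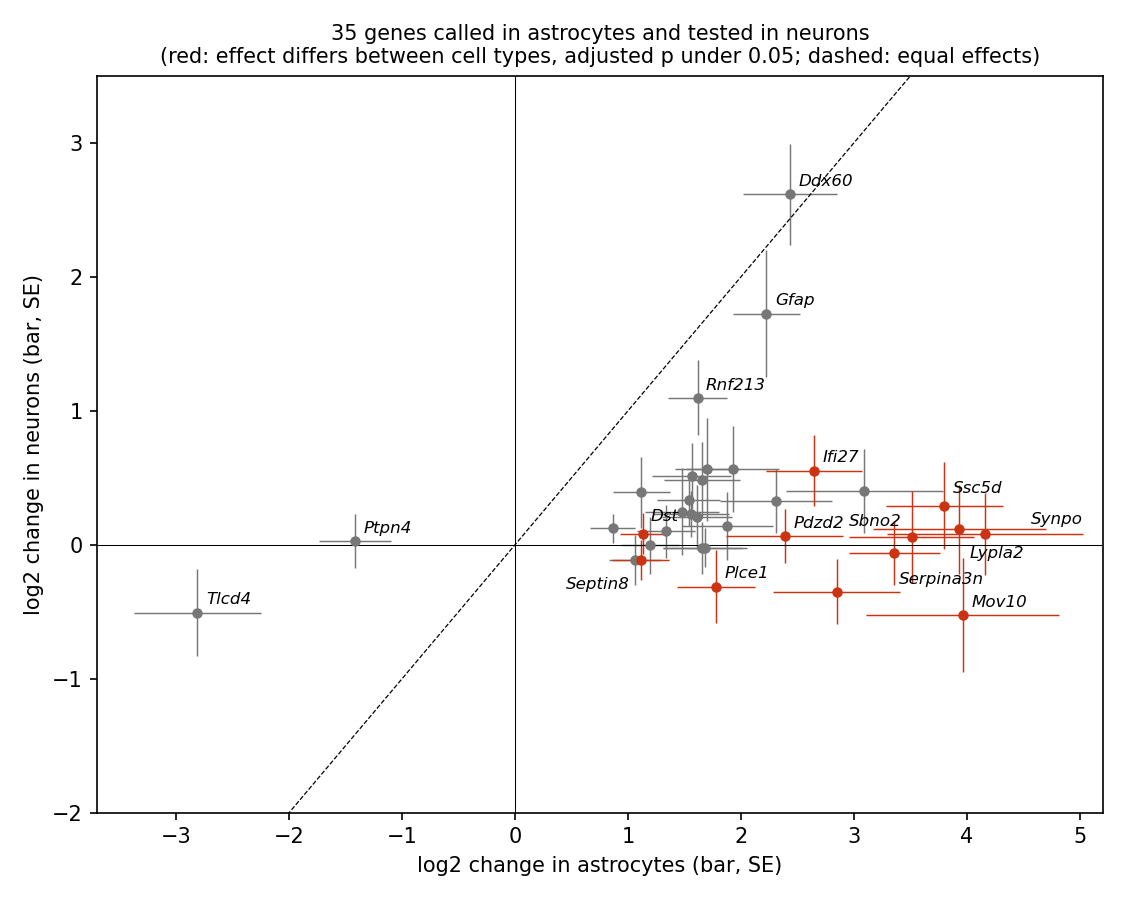
Log2 change in neurons (y axis) against that in astrocytes (x axis) for the 35 genes called in astrocytes and tested in neurons, with SE bars; red points differ between cell types at an adjusted p under 0.05, and the dashed line marks equal effects. Ddx60 lies on the line and Gfap and Rnf213 near it, while Serpina3n, Ssc5d and Sbno2 lie near 0 on the y axis.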

How the data were processed

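Gene expression was analysed in 11 sorted astrocyte libraries (5 P301S, 6 non-Tg), with 14 neuron libraries for reference. Per the file headers, each deposited table gives a count of uniquely aligned reads per Entrez gene, and the authors' size-factor-adjusted RPKM, which equals the counts times 1 factor per library and 1 per gene. Counts were tested and RPKM was used to compare genes per length. GSNAP and GRCm38 were used per the submitters' processing notes; no source used here gives their versions or the strand setting. Of 36528 gene IDs 5479 matched no symbol of the RefSeq GRCm38.p6 table; they held 2.81% of astrocyte counts and stayed in the tests. Promoters are RefSeq entries. Astrocyte libraries held 1.89 to 3.79 times 1000000 counts; the floor of 3 counts covers counting error only.

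Genotype was tested with edgeR 4.0.16 (R 4.3.3; quasi-likelihood F test, TMM, filterByExpr, robust fit) on the 11 libraries, with Benjamini-Hochberg adjustment over all genes tested and a threshold of 0.05. The SE is the log2 change divided by the square root of F. Neurons were fitted alike, and the difference of effects in 1 fit of all 25 libraries. Levels are TMM-scaled CPM; list levels used log2 CPM with a prior count of 2. For the 11 library measures an exact permutation test was used (scipy 1.17.1). The script was tested on simulated data. Gene lists were described by counts and medians, with no set test. Genes were named by rule: the 20 higher and all lower called genes with the smallest p (predicted genes, Xist and Y-linked genes left out), called list members or the 3 of smallest p, Gfap, Aqp4, Slc1a2, Mapt, Prnp, Apoe and C3; other called genes could be named with their change. The comparison, lists and rule were chosen with earlier results of these data known. Named outside the rule, and chosen after their values were seen, were Ifit1, Stat3, CYTB, ND5, Aldh1l1, Ctsb, Slc7a11, Gja1, Prdx6, Mt3, Il1r1, Il6st, S1pr3, Cd44, Cp, Flna, Ccnd1, Serping1, H2-D1, Nfkb2, Nfkbia, Srebf1, App, Timp2, Timp3 and Timp4, with Rbfox3, Cldn5, Flt1 and Cdh5 in the check of the label. Alternatives were DESeq2 1.42.0, RLE and the authors' size factors, limma 3.58.1 voom, other filters, covariates and left-out libraries. Some genes are not reported here.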

Additional observations from a re-analysis of the deposited data

Results flagged for a closer look

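The genotype effect differed between astrocytes and neurons in 7 of 29 named genes, by the test of the difference itself in edgeR (astrocytes minus neurons, log2), against 0.394% of all 14197 genes tested. Most of these 29 were named for a small p in astrocytes, so the count is no independent evidence of a difference. The differences were 3.427 for Serpina3n (adjusted p = 7.39e-04), 3.508 for Ssc5d (0.00711), 3.405 for Sbno2 (0.0159), 2.107 for Ifi27 (0.0469) and 1.052 for Dst (0.0488). Coq8b (3.351, adjusted p = 0.0469) and Dcdc5 (-5.82, adjusted p = 0.00580) differed in the fit of all 25 libraries, but neither passed the filter of the neuron fit, so no neuron change of their own is given. Dcdc5 was under the floor of 3 counts in all P301S astrocyte libraries, so its value depends on the prior count and shows the direction only.

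In 2 of 80 groups of libraries examined, 1 library stood apart from the rest of its group; chance gives about 1 in 20. Rnf213 in non-Tg astrocyte library 5 had a log2 CPM of 8.146, where the other 5 ran from 6.952 to 7.383. Aqp4 in P301S astrocyte library 3 had a log2 CPM of 8.628, where the other 4 ran from 9.458 to 9.735.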

How the results depend on the processing

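The number of genes called higher was 63, and it was 319 with DESeq2, 961 with all 25 libraries in 1 fit, 114 with limma voom and 461 without a filter on low counts. It was 0 with genes detected as a covariate, 6 with oligodendrocyte and microglia marker covariates, 13 with a sex marker covariate and 36 without P301S libraries 3 and 4 together (27 shared with the 63). The number lower was 3, and it was 88 with DESeq2, 721 with all 25 libraries, 5 with a filter at 1 CPM, 10 with voom, 100 without a filter, 0 with either the genes detected or the oligodendrocyte and microglia covariates, and 6 without P301S libraries 3 and 4. With the sex marker covariate it was 2, with 0 of the 3 among them. Voom and the fit without P301S libraries 3 and 4 each shared 1 of the 3. DESeq2, the fit of all 25 libraries, the 1 CPM filter and the fit without a filter shared all 3. Leaving out each library in turn gave 26 to 119 higher and 0 to 19 lower. RLE size factors (70 and 3), the authors' size factors (67 and 3), a fit without robust estimation (58 and 3) and a fit with neither Malat1 nor mitochondrial genes (65 and 3) moved the counts little. Calls for the difference between cell types numbered 56, and 425 with DESeq2. The median change of all genes was 0.13, -0.15 with voom and -0.17 without a filter.

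Aqp4 turned from -0.40 to 0.0611 with oligodendrocyte and microglia covariates, and Slc1a2 from -0.23 to 0.00429 with these and 0.0863 with the sex covariate; neither was called in any of these fits. The cause was not tested in any case. List medians moved too: over all alternatives those of pan-reactive genes ran from 1.62 to 2.37, of interferon-induced genes from 1.502 to 2.43, of A1 genes from 1.10 to 2.28, of cholesterol synthesis genes from -1.13 to -0.36, of mitochondrially encoded genes from -0.06 to 1.48, of precursor markers from -0.06 to 1.28 and of proliferation genes from -0.13 to 1.24. Medians of antigen presentation genes ran from 0.70 to 1.93 and those of complement genes from 0.42 to 1.31. The genes called in all 11 fits without 1 library numbered 24. No paired analysis was possible because the labels carry no replicate numbers and tie no library to an animal. In simulated counts a log2 change of 1 was not called at this depth and spread, so a gene without a call may still have changed by that much.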
